A study of Homo sapiens with 48 samples.

Results

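In L3.6pl cells, a human pancreatic ductal adenocarcinoma line, 2368 genomic regions carried RELA after 30-min TNFα, were already occupied by FOSL1 in vehicle, and were no longer called for RELA after 6-h TNFα. They were chosen from the 11249 RELA regions called after 30-min TNFα on chromosomes 1 to 22 and X, of which they were 21.1%. A region was kept when it overlapped a FOSL1 vehicle region by at least 1 bp and overlapped no region of the lists for RELA in vehicle, RELA after 6-h TNFα, RELB in vehicle or RELB after 6-h TWEAK. The study asked how canonical NF-κB signaling, driven by TNFα, and noncanonical NF-κB signaling, driven by TWEAK, use chromatin in pancreatic cancer. ChIP-seq was performed for RELA, RELB and the histone mark H3K27ac in vehicle (PBS), after 30-min and 6-h TNFα and after 30-min and 6-h TWEAK, and for FOSL1 in vehicle alone. The 48 samples form 16 conditions of 3 replicates, but each condition was deposited as 1 peak list called on merged replicates, so no value below has a replicate error and no difference between conditions could be tested. In the RELA list of 30-min TNFα the peaks are named after replicate 1 as well as after the merge, and it is not settled that all 3 replicates entered it. All conditions come from a single cell line, RELA was precipitated with protein G beads and the other targets with protein A beads, and the read depth per sample is unknown.

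Ranges in parentheses after a share are exact (Clopper-Pearson) 95% binomial intervals. They cover counting error over regions only, and regions are not replicates of a condition. Fold enrichment is the ChIP signal over input at a peak, as the authors' peak caller gave it. As a check of the labeled cell type, 2 of 6 epithelial genes (*KRT8* and *EPCAM*) and 2 of 12 genes of other cell types (*COL1A1* and *COL3A1*) had a vehicle H3K27ac peak over a start site. With a window of 500 bp around the start, chosen after these values were seen, the counts were 6 of 6 and 3 of 12 (*CD68* in addition), and the defining genes of T cells, B cells, endothelium, hepatocytes and islet cells had none.

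RELA is the main activating subunit of canonical NF-κB. In resting cells it is held in the cytoplasm by IκB proteins, and TNFα triggers their degradation, after which RELA enters the nucleus within minutes and induces, among other genes, those of its own inhibitors, which return it to the cytoplasm. FOSL1 (FRA-1) is a FOS-family subunit of AP-1, a dimeric factor downstream of RAS and MAP kinase signaling that is highly active in many pancreatic cancer cells and occupies enhancers before an acute stimulus arrives. H3K27ac marks active promoters and enhancers. RELB with p52 is the main noncanonical dimer, which accumulates over hours after TWEAK engages its receptor Fn14.

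The sequences below show which letters the summits of these regions hold, taking the strongest by RELA fold enrichment in each class of motif outside annotated untranslated exons. Each line gives 200 bp of hg38 around a RELA summit on the plus strand, and capitals mark matches to the AP-1 consensus TGANTCA or to the NF-κB consensus of 10 letters on either strand. Matches to these consensus sequences cannot share bases.
*IGFL1* locus, both motifs, chr19:46211312-46211511: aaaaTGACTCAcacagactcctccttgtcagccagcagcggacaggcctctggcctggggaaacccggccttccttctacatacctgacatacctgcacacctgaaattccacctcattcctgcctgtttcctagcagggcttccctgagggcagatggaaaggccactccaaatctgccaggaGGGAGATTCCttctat
*ATP8B1* intron, both motifs, chr18:57781055-57781254: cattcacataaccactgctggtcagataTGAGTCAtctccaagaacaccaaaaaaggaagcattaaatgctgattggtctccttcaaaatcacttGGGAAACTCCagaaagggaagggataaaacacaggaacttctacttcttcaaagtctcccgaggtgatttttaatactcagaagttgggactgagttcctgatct
*TSPAN2* intron, both motifs, chr1:115062742-115062941: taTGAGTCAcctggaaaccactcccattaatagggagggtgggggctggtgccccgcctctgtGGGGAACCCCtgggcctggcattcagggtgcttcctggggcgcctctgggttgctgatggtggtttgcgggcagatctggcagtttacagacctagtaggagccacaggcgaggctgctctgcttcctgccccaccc
*KIF6* intron, AP-1 alone, chr6:39426055-39426254: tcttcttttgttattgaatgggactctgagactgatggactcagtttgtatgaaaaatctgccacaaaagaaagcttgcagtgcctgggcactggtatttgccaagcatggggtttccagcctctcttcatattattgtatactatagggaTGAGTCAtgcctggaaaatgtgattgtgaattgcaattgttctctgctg
*REPIN1* promoter, AP-1 alone, chr7:150367913-150368112: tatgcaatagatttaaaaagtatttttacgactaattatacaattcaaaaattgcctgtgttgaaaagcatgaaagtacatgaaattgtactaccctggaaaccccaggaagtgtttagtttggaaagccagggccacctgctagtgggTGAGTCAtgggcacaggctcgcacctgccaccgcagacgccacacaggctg
*BCL7A* intron, NF-κB alone, chr12:122023700-122023899: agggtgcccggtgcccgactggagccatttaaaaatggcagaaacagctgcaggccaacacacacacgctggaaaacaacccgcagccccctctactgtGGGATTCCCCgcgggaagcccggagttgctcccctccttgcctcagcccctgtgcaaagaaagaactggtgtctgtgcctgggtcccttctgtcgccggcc
*RYK* locus, NF-κB alone, chr3:134310194-134310393: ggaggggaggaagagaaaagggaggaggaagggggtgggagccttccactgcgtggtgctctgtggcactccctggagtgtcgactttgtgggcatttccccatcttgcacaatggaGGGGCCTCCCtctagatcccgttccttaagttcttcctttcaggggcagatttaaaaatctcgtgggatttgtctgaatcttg
In the 5 sequences with an AP-1 match, its center lay between 1 and 12 bp from the FOSL1 summit and between 52 and 95 bp from the RELA summit. In the intron of *ATP8B1*, which encodes a phospholipid flippase, the NF-κB match lay 0.5 bp from the RELA summit and the AP-1 match 1 bp from the FOSL1 summit, with 69 bp between the AP-1 match and the RELA summit. In the intron region of *BCL7A*, a subunit gene of the BAF chromatin remodeler, the NF-κB match lay 3.5 bp from the RELA summit and 273.5 bp from the FOSL1 summit. Near *RYK*, which encodes a Wnt receptor, these distances were 21.5 and 151.5 bp. In the *IGFL1* region the NF-κB match lay 88.5 bp from the RELA summit, near the edge of the window, so a match does not always sit at the summit.

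The values that chose the regions are given as a description. Of the 11249 RELA regions, 9093 were absent from the RELA vehicle list, 8504 also from the RELB vehicle list, 7506 also from the RELB list of 6-h TWEAK and 5665 also from the RELA list of 6-h TNFα. Of those 5665 transient regions, 2368 overlapped FOSL1 and 3297 did not. Among the 7506 regions, 70.1% (68.5 to 71.7%) of the 3377 on FOSL1 and 79.8% (78.6 to 81.1%) of the 4129 without FOSL1 were absent at 6 h. The transient regions on FOSL1 had a median RELA fold enrichment of 5.04 (quartiles 4.33 and 6.23, highest 17.9). The median was 5.67 at transient regions without FOSL1 and 8.27 at the 1009 regions on FOSL1 that kept RELA at 6 h and passed the other criteria, called sustained here. Absence at 6 h went with lower RELA enrichment at 30 min: among induced regions on FOSL1, 89.8% (87.6 to 91.8%) of the lowest quartile group by RELA fold enrichment were transient, against 84.3%, 73.6% and 32.7% (29.5 to 36%) of the next groups. A region not called at 6 h may still hold RELA below the caller's threshold, and 68 of the 2368 had a RELA region of 6-h TNFα within 500 bp.

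FOSL1 overlap was complete for 1216 regions (51.4%), which lay wholly inside a FOSL1 region, and 2058 (86.9%) were covered over at least 50% of their length. At the edge of the rule, 11 regions had 1 to 10 bp of overlap, and 19 transient regions counted as without FOSL1 had a FOSL1 region up to 10 bp away. The median FOSL1 fold enrichment was 5.37 (quartiles 4.16 and 8.04, highest 24.7), beside 5.78 at sustained regions. RELA and FOSL1 summits lay a median of 69 bp apart (quartiles 28 and 135 bp). These regions took 2364 of the 58828 FOSL1 regions, or 4.02%, while 50097 FOSL1 regions lay outside every RELA and RELB list and serve below as FOSL1 regions without RELA.

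The transient RELA regions on FOSL1 were acetylated before any stimulus. In vehicle, 2110 of 2368, or 89.1% (87.8 to 90.3%), had an H3K27ac peak within 500 bp of the RELA summit, above the background of 60.1% over all RELA regions of 30-min TNFα. The share was 30.8% (29.2 to 32.4%) at transient regions without FOSL1, 84.9% (82.6 to 87.1%) at sustained regions on FOSL1 and 67.4% (67.0 to 67.8%) at FOSL1 regions without RELA. After 30 min of TNFα the transient regions on FOSL1 reached 91.4% (background 71.2%), and at 6 h 91.2% (background 67.1%). After TWEAK the shares were 89.8% at 30 min (background 63.3%) and 88.3% at 6 h (background 60.6%). All RELA regions, which give the backgrounds here and below, held 26.2% tandem repeats (defined below), against 7.77% of the transient regions on FOSL1. The backgrounds are therefore not like for like, and the part of repeats in these differences was not tested. Most of the transient regions on FOSL1 were called in every list: 2019 (85.3%) had a peak in all 5 H3K27ac lists and 133 (5.62%) in none. The backgrounds over all RELA regions were 52.9% and 22.5%. Sustained regions on FOSL1 were similar to the transient ones, with 79.9% and 6.44%. The corresponding shares were 26.1% and 48.3% at transient regions without FOSL1.

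**Figure D1:**
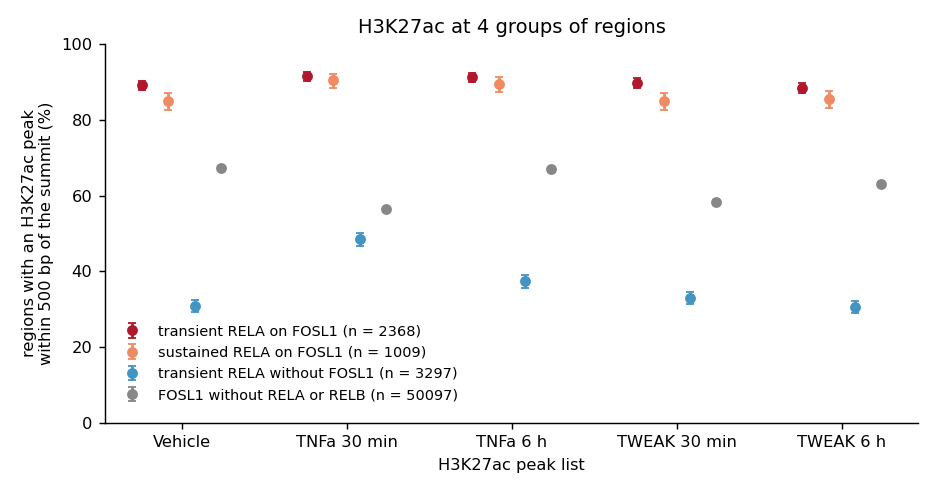
Percentage of regions with an H3K27ac peak within 500 bp of the summit (vertical axis) in each of 5 H3K27ac lists (horizontal axis), for 4 groups of regions; points are shares and bars exact 95% binomial intervals over regions. The transient RELA regions on FOSL1 lie between 88.3 and 91.4% in every list, whereas transient regions without FOSL1 lie between 30.6 and 48.4%.

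The H3K27ac fold enrichment differed little between the lists. At the transient regions on FOSL1 with a peak, the median H3K27ac fold enrichment was 3.42 in vehicle, 3.51 and 3.38 after 30-min and 6-h TNFα, and 3.41 and 3.59 after 30-min and 6-h TWEAK. Region by region, the median log2 ratio of treated to vehicle fold enrichment was 0.04 after 30-min TNFα, -0.01 after 6-h TNFα, 0.01 after 30-min TWEAK and 0.07 after 6-h TWEAK. FOSL1 regions without RELA gave -0.03, -0.02, -0.02 and 0.05 for the same lists, and sustained regions 0.08, -0.01, 0.02 and 0.08. The quartiles of the ratio were -0.08 and 0.16 after 30-min TNFα and -0.01 and 0.14 after 6-h TWEAK. In the 6-h TWEAK list 73.5% of the transient regions on FOSL1 were higher than in vehicle, near the background of 73.0% over all RELA regions. The share was 75.8% at sustained regions and 65.1% at FOSL1 regions without RELA. All 4 ratios share the vehicle list.

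More of the transient regions on FOSL1 gained an H3K27ac peak after TNFα than lost one. After 30-min TNFα, 86 regions (3.63%) gained and 31 (1.31%) lost a peak, beside backgrounds of 13.1 and 2.03% over all RELA regions and of 1.93 and 12.8% over FOSL1 regions without RELA. Of the changed regions 73.5% (64.5 to 81.2%) gained, beside 13.1% of the changed FOSL1 regions without RELA and 86.6% of all changed RELA regions. After 6-h TNFα, 73 (3.08%) gained and 24 (1.01%) lost a peak, beside 9.48 and 2.49% over all RELA regions and 3.88 and 4.18% over FOSL1 regions without RELA. The gained share of the changed regions was 75.3% (65.5 to 83.5%), with backgrounds of 79.2 and 48.2%. A gained share also depends on how many regions lacked a vehicle peak and could gain one. These were 258 of 2368 transient regions on FOSL1, 4488 of 11249 RELA regions and 16345 of 50097 FOSL1 regions without RELA. Shares among unmarked and marked regions are given below.

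After TWEAK, with the window of 500 bp, the intervals of both gained shares included equal numbers of gains and losses. After 30-min TWEAK, 63 (2.66%) gained and 47 (1.98%) lost a peak, beside 6.63 and 3.46% over all RELA regions and 2.02 and 11.1% over FOSL1 regions without RELA. This gave a gained share of 57.3% (47.5 to 66.7%), with backgrounds of 65.7 and 15.5%. After 6-h TWEAK, 38 (1.60%) gained and 57 (2.41%) lost a peak, beside 4.54 and 4.09% over all RELA regions and 2.22 and 6.53% over FOSL1 regions without RELA. The gained share was 40.0% (30.1 to 50.6%), with backgrounds of 52.6 and 25.4%. The lists differ in length and all of these comparisons share the vehicle list. With H3K27ac peaks that overlapped the region itself, the gained share was 60.7% (54.7 to 66.5%) after 30-min TNFα and 53.4% (46.6 to 60.1%) after 6-h TNFα. It was 46.6% after 30-min TWEAK and 21.7% (16.9 to 27.1%) after 6-h TWEAK. The excess of gains after 6-h TNFα thus depended on the window, and after 6-h TWEAK losses exceeded gains with these peaks.

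Few of these regions were unmarked in vehicle, and of the 258 that were, 129 lay in tandem repeats (defined below). Of the 258, 33.3% (27.6 to 39.4%) had a peak after 30-min TNFα, which is near the 32.9% of all unmarked RELA regions. The share was 43.4% at sustained regions on FOSL1, 26.5% at transient regions without FOSL1 and 5.92% at FOSL1 regions without RELA. In the other lists, 28.3% gained a peak after 6-h TNFα, 24.4% after 30-min TWEAK and 14.7% after 6-h TWEAK, beside 23.8, 16.6 and 11.4% of all unmarked RELA regions. FOSL1 regions without RELA gained one in 11.9, 6.20 and 6.81% of cases.

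Of the 2110 transient regions on FOSL1 with a vehicle peak, 1.47% (1.00 to 2.08%) lost it after 30-min TNFα. Other RELA regions had low values as well, with 1.28% at sustained regions on FOSL1, 2.37% at transient regions without FOSL1 and 3.37% over all RELA regions, whereas FOSL1 regions without RELA lost 19.0% (18.6 to 19.4%). The difference was not particular to that list. After 6-h TNFα, 30-min TWEAK and 6-h TWEAK, transient regions on FOSL1 lost 1.14, 2.23 and 2.70% of their vehicle peaks. FOSL1 regions without RELA lost 6.20, 16.4 and 9.69% in the same lists. For 30-min TNFα, vehicle peaks were also set side by side by strength. Below a fold enrichment of 3.05, 22 of 704 transient regions on FOSL1 (3.13%) lost the peak, beside 2.33% at sustained regions, 3.72% at transient regions without FOSL1, 5.48% over all RELA regions and 34.2% at FOSL1 regions without RELA. Between 3.05 and 3.84 the transient regions on FOSL1 lost 0.711% and FOSL1 regions without RELA 16.4%, and above 3.84 they lost 0.569 and 3.54%. The depth of the lists is unknown, and its part in these losses was not tested.

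**Figure D2:**
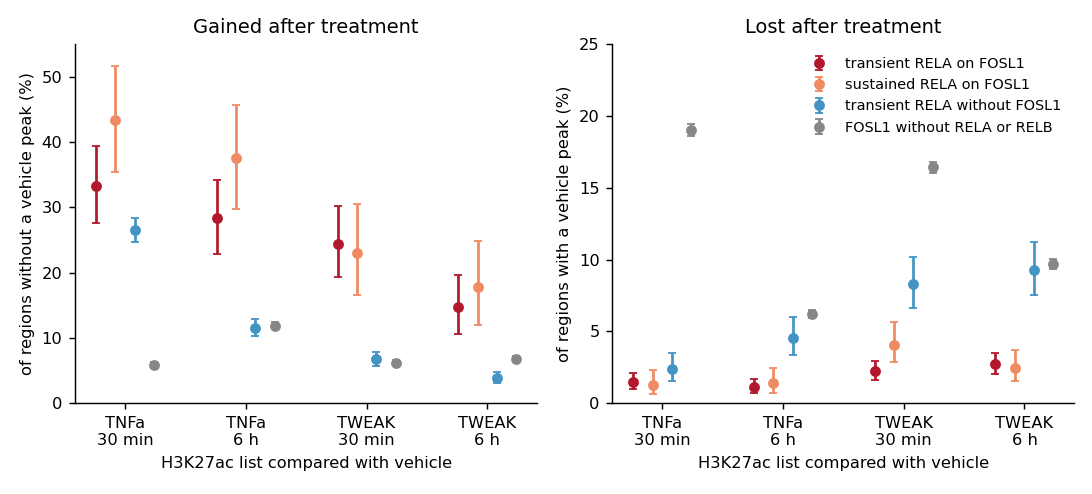
Left, percentage of regions without a vehicle H3K27ac peak that had one after treatment; right, percentage of regions with a vehicle peak that had none after treatment, for 4 treated lists (horizontal axes) and 4 groups of regions, with exact 95% binomial intervals over regions. Transient RELA regions on FOSL1 gained a peak in 33.3% of unmarked cases after 30-min TNFα and lost 1.47% of marked ones, beside 43.4 and 1.28% at sustained regions, 26.5 and 2.37% at transient regions without FOSL1, and 5.92 and 19.0% at FOSL1 regions without RELA.

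Of the 86 regions that gained H3K27ac after 30-min TNFα, 2 were in promoters, where only 10 of 677 regions lacked a vehicle peak and could gain one. In 47 of the 86 (54.7%, 43.5 to 65.4%) there was also a peak after 6-h TNFα, when RELA was no longer called, while 42 had a peak after 30-min TWEAK and 26 after 6-h TWEAK. In 29 of the 86 the sequence was a tandem repeat. Among the other 57, 37 (64.9%, 51.1 to 77.1%) had a peak after 6-h TNFα, 20 after 30-min TWEAK and 19 after 6-h TWEAK. Of the 31 regions that lost H3K27ac after 30-min TNFα, 20 had a peak again at 6 h. These later calls were not counted in the other groups of regions, so they cannot be called particular to the transient regions on FOSL1.

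Most of the transient regions on FOSL1 held neither consensus at the RELA summit. In the 200 bp around it, 483 (20.4%, 18.8 to 22.1%) held an AP-1 match, against a background of 14.4% of all RELA regions, and 487 (20.6%, 19.0 to 22.3%) held an NF-κB match, against a background of 37.5%. Both matches were found in 56 regions (2.36%, background 5.82%), AP-1 alone in 427 (18%, background 8.57%), NF-κB alone in 431 (18.2%, background 31.7%) and neither in 1454 (61.4%, background 53.9%). At transient regions without FOSL1 the AP-1 share was 7.04% and the NF-κB share 51.9%. At sustained regions on FOSL1 the shares were 28.1% and 42.3%. Median GC content was 54.5% at transient regions on FOSL1, 47.5% at transient regions without FOSL1 and 53% at sustained regions, and its part in the motif shares was not tested. For other consensus sequences on either strand, GGAATG of TEAD factors was found in 19.0% (background 17.4%), TGTGGT of RUNX factors in 13.8% (background 11.8%), AGATAA of GATA factors in 7.56% (background 6.98%) and the 8-letter cyclic AMP response element, which binds ATF and CREB factors, in 1.22% (background 0.578%). A TEAD match can share bases with an AP-1 or NF-κB match. A match describes letters only, and its absence says nothing about binding.

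Matches lay closer to the summit of the factor they belong to. NF-κB matches lay within 25 bp of the RELA summit in 283 transient regions on FOSL1 (12%, 10.7 to 13.3%) and AP-1 matches in 133 (5.62%). The NF-κB share was below the background of 26.4% over all RELA regions, where the AP-1 share was 4.44%. The 2 shares were 29.3 and 9.12% at sustained regions, and 34.2 and 1.46% at transient regions without FOSL1. Around the FOSL1 summits of the transient regions on FOSL1 the order was the other way round. There, AP-1 lay within 25 bp in 501 (21.2%, 19.5 to 22.9%) and NF-κB in 103 (4.35%). At FOSL1 regions without RELA, 32.3% had an AP-1 match within 25 bp of the FOSL1 summit and 1.17% an NF-κB match.

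**Figure D3:**
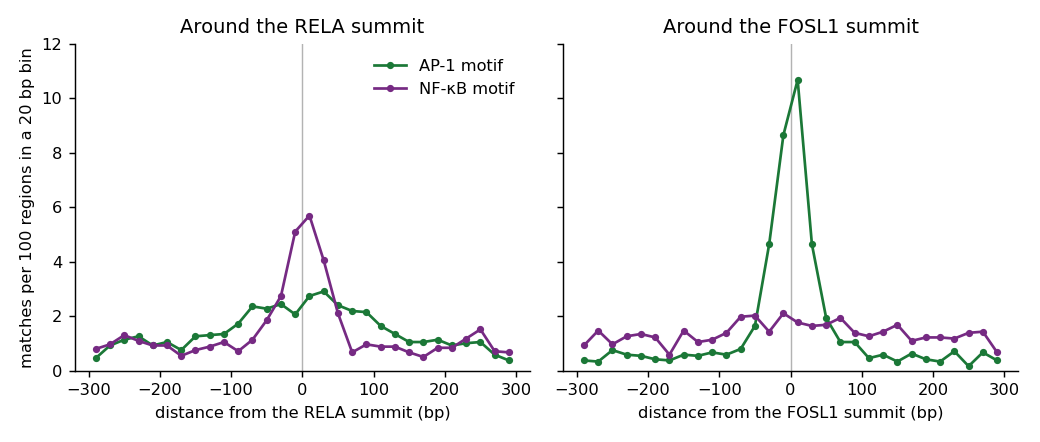
Matches per 100 transient RELA regions on FOSL1 (vertical axis) in bins of 20 bp by distance from the RELA summit (left) or from the FOSL1 summit (right), for the AP-1 and NF-κB consensus sequences. NF-κB reached 5.70 matches per 100 regions beside the RELA summit, and AP-1 reached 10.7 beside the FOSL1 summit.

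The regions were not uniform: the AP-1 share differed most with FOSL1 enrichment and the NF-κB share most with RELA enrichment. From the lowest to the highest quartile group of 592 regions each by FOSL1 fold enrichment, the share with an AP-1 match was 3.04, 7.43, 18.9 and 52.2%, and the share in promoters was 35.3, 36.8, 28.2 and 14.0%. H3K27ac in vehicle covered 77.5% of the lowest and 96.8% of the highest quartile group. The NF-κB share was 19.9% in the lowest quartile group, 27% in the next and 12.3% in the highest. By RELA fold enrichment, the NF-κB share was 10.6, 17.9, 24.7 and 29.1% from the lowest to the highest quartile group, while the AP-1 share lay between 14.9 and 25%. Where RELA and FOSL1 summits were farthest apart, at 135 to 884 bp, 26.9% held an NF-κB match at the RELA summit. This share was 15.2% where the summits lay within 28 bp. The AP-1 shares were 6.76 and 24.2% in the same order. At 135 bp or more the FOSL1 summit lies outside the motif window, which reaches 100 bp from the RELA summit. Because AP-1 matches lay closer to the FOSL1 summit, these AP-1 shares cannot show whether the regions differ in AP-1 content.

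**Figure D4:**
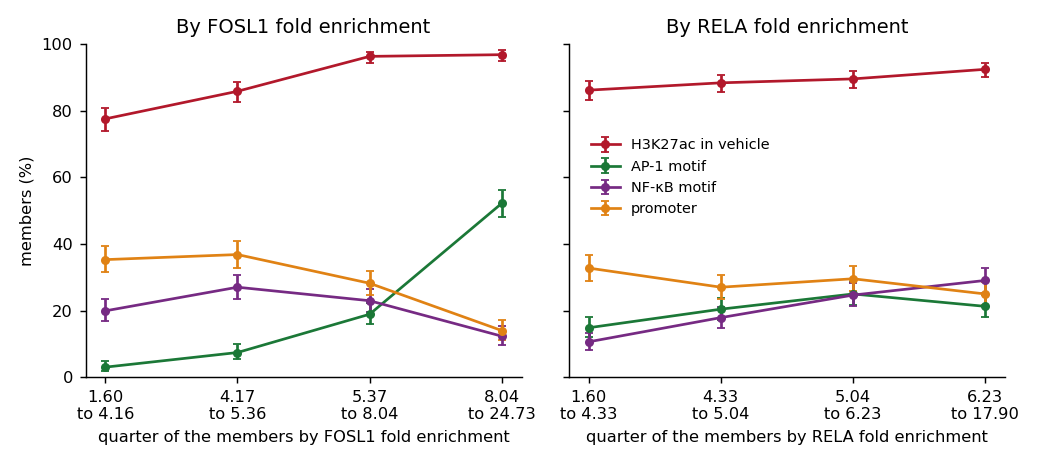
Percentage of the transient RELA regions on FOSL1 (vertical axis) with vehicle H3K27ac, an AP-1 match, an NF-κB match or a promoter position, in quartile groups of 592 regions by FOSL1 fold enrichment (left) or RELA fold enrichment (right), with exact 95% binomial intervals over regions. The AP-1 share runs from 3.04 to 52.2% over the FOSL1 groups, and the NF-κB share from 10.6 to 29.1% over the RELA groups.

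By position, 677 regions (28.6%, background 16.8%) lay in promoters, within 1 kb of the start of a protein-coding gene, 64 (2.70%, background 2.21%) in exons, 684 (28.9%, background 26.9%) in introns and 943 (39.8%, background 54.1%) between genes. Promoters held 19.2% of the FOSL1 regions without RELA and 27.6% of the sustained regions. The promoter regions were almost all acetylated in vehicle (98.5%), as were 274 of 278 sustained regions in promoters. A vehicle peak was also present at 1721 of 1888 promoter regions among all RELA regions and at 9085 of 9617 among FOSL1 regions without RELA. The transient promoter regions on FOSL1 had a median GC content of 65% and held an AP-1 match in 9.16% and an NF-κB match in 27.9%. Intron regions held them in 28.8 and 19.9%, and 91.4% were acetylated. Of the motif classes, 41.5% (36.8 to 46.3%) of the regions with NF-κB alone were in promoters, against 12.2% (9.23 to 15.7%) of those with AP-1 alone. The median FOSL1 fold enrichment was 4.89 in the first of these classes and 9.74 in the second.

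Few of these regions were called in the RELA and RELB lists that the rule did not use. RELA after TWEAK overlapped 20 at 30 min (0.845%, background 20.1%) and 34 at 6 h (1.44%, background 20.9%). RELB overlapped 20 after 30-min TNFα (0.845%, background 17.5%), 24 after 6-h TNFα (1.01%, background 20.7%) and 11 after 30-min TWEAK (0.465%, background 15.7%). Regions with RELA or RELB in vehicle were left out by the rule, so the backgrounds, which include them, are not like for like. Transient regions without FOSL1, which passed the same exclusions, had fewer overlaps still, with 0.243 and 0.455% for RELA after 30-min and 6-h TWEAK. Sustained regions on FOSL1 passed the other exclusions but by definition overlapped the RELA list of 6-h TNFα, so they are not like for like either. Their median RELA fold enrichment was also higher (8.27 against 5.04). RELA was called at 11.4% (9.50 to 13.5%) of the sustained regions after 30-min TWEAK and at 3.96% after 6-h TWEAK.

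Most of these overlaps lay in tandem repeats. A region was counted as a tandem repeat when the 1000 bp around its summit matched itself at a single shift of 1 to 400 bp over a share of at least 0.4, which held for 184 transient regions on FOSL1 (7.77%, background 26.2%), beside 7.95% of the transient regions without FOSL1 and 8.82% of the sustained regions. Of the 80 regions in any of the 5 other RELA and RELB lists (3.38%, background 29.2%, and 1.24% of the transient regions without FOSL1), 67 were in the 184. In tandem repeats 29.9% had vehicle H3K27ac, 2.17% an AP-1 match and 4.35% an NF-κB match, the median FOSL1 fold enrichment was 3.86 and 85.9% lay between genes. The other 2184 regions had vehicle H3K27ac in 94.1% (93.0 to 95.0%), and 13 of them (0.595%) were in another RELA or RELB list, with 0 in either RELB list of TNFα. A count of 0 of 2184 allows a share of up to 0.169%. Without tandem repeats the gained share of changed regions was 68.7% (57.6 to 78.4%, 57 gained and 26 lost) after 30-min TNFα and 72.9% after 6-h TNFα. It was 39.7% (28.0 to 52.3%, 27 gained and 41 lost) after 30-min TWEAK and 34.7% (23.9 to 46.9%) after 6-h TWEAK.

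The 5 regions called in most of the other RELA and RELB lists were all tandem repeats between genes, with self-matches of 0.57 to 0.76. The first, on chr5:49612302-49612454 and 816343 bp from *EMB*, had a RELA fold enrichment of 6.17 after 30-min TNFα, 8.04 after 30-min TWEAK and 5.89 after 6-h TWEAK. RELB gave 5.39 and 4.63 there after 30-min and 6-h TNFα and 5.82 after 30-min TWEAK. The others lay nearest to *UQCRFS1*, *OR11H12*, *ALG10* and *PRIM2*, at 824495 bp or more from the start. The genes that were nearest to most regions were likewise neighbors of repeats: 13 regions nearest to *EMB*, 12 to *SRGAP2C* and 12 to *ZNF337* were all tandem repeats, 744238 bp or more from the gene. Outside repeats, *PLS3*, the gene of the actin-bundling protein plastin 3, was nearest to 10 regions of chrX:115726354-115887525, 86709 to 247692 bp from its start, of which 7 had vehicle H3K27ac. It was picked after its values were seen.

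The 10 regions of highest RELA fold enrichment reached 17.9 to 14.6 and were acetylated in all 5 lists. The strongest lay in the promoter of *GPR157*, an orphan G protein-coupled receptor gene, on chr1:9110599-9110950, with a FOSL1 fold enrichment of 6.43 and summits 24 bp apart. Its H3K27ac fold enrichment was 2.88 in vehicle, 2.98 and 3.00 after 30-min and 6-h TNFα and 2.99 and 3.49 after 30-min and 6-h TWEAK. The highest RELA value thus came with little difference between vehicle and the TNFα lists, and H3K27ac was highest after 6-h TWEAK. The next, on chr13:109256987-109257294, lay 529471 bp from *IRS2*, an insulin receptor substrate gene. It had RELA 17.2 and FOSL1 10.6, and was the single region of the 10 with RELA after 30-min TWEAK (7.12). An intron region of *GPD2*, which encodes mitochondrial glycerol-3-phosphate dehydrogenase, on chr2:156474446-156474823, had RELA 17.1 and FOSL1 3.65. Its H3K27ac was 3.38 in vehicle, 4.11 at 30 min and 3.12 after 6-h TNFα, and 3.01 and 3.29 after 30-min and 6-h TWEAK, highest in the early TNFα list.

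The others of the 10 lay near or in *PPP2R2A*, a regulatory subunit gene of phosphatase 2A (RELA 16.7), *MYO1D*, an unconventional myosin gene (16.2), *CATSPERB*, a sperm calcium channel subunit gene (16.1), *DAB2IP*, a RAS GTPase-activating protein gene (15.7), *MAP2K2*, which encodes MEK2 (15.3), *KIF6*, a kinesin gene (14.8), and *PTPRC* (14.6). *PTPRC* encodes the leukocyte phosphatase CD45. Its start had no vehicle H3K27ac, whereas its intron region on chr1:198657514-198657834 had H3K27ac of 2.87 in vehicle and 3.26 after 30-min TNFα. Of these 10 regions, 1, in *KIF6*, held an AP-1 match within the window and 0 held an NF-κB match.

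**Figure D5:**
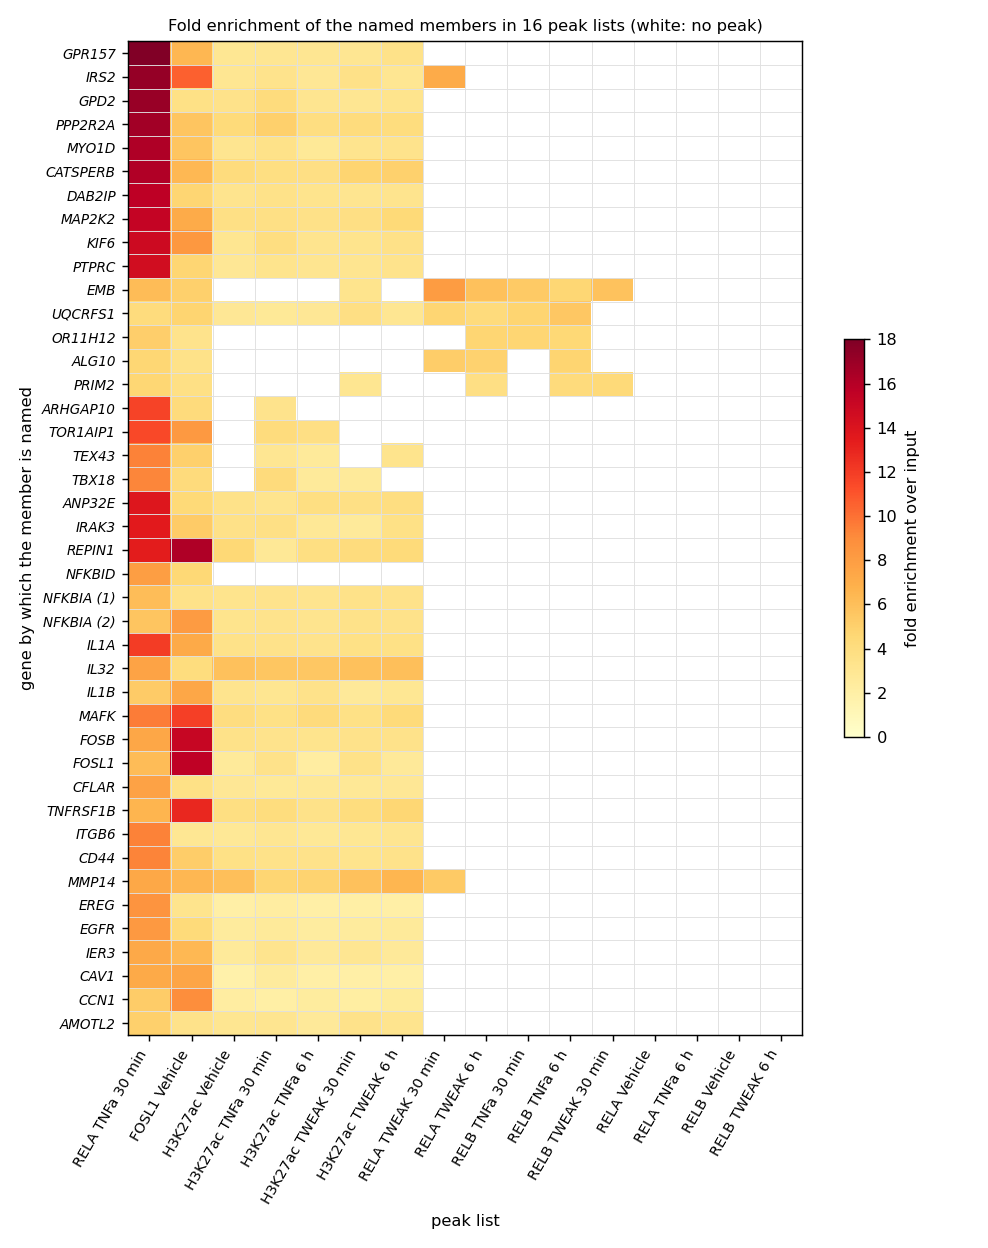
Fold enrichment over input (color) of 42 named transient RELA regions on FOSL1 (rows, by gene) in 16 peak lists (columns), with white where no peak was called. All 42 have RELA after 30-min TNFα and FOSL1, 33 have vehicle H3K27ac, and none has a peak in the last 4 lists, which the rule left out.

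Promoter regions of high RELA enrichment included *ANP32E*, which encodes a chaperone that removes the histone variant H2A.Z (RELA 13.8, FOSL1 4.41), *IRAK3*, an inhibitor of interleukin 1 and Toll-like receptor signaling (13.5 and 5.34), and *REPIN1*, a zinc finger protein gene (13.4 and 16.2). The *REPIN1* promoter, printed above, had its AP-1 match 9 bp from the FOSL1 summit. Its H3K27ac was 4.48 in vehicle, 2.81 and 3.86 after 30-min and 6-h TNFα and 4.13 and 4.26 after 30-min and 6-h TWEAK, lowest in the early TNFα list. At *IRAK3* the values were 3.57, 3.72, 2.79, 2.55 and 3.64 in the same order.

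The strongest regions that gained H3K27ac after 30-min TNFα differed in whether the peak was also called in the later lists. An intron region of *ARHGAP10*, a GTPase-activating protein gene, on chr4:147814462-147814717, had H3K27ac in the 30-min TNFα list alone (3.36). Near *TOR1AIP1*, which encodes a protein of the inner nuclear membrane, H3K27ac was 4.10 at 30 min and 3.73 after 6-h TNFα and not called in the other lists. Regions near *TEX43* and *TBX18*, a T-box factor gene, had 2.96 and 4.16 after 30-min TNFα, 2.55 and 2.54 after 6-h TNFα, and a peak in 1 of the TWEAK lists each.

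In the GENCODE 44 annotation, 3194 of 19618 protein-coding genes, or 16.3%, had a transient region on FOSL1 within 50 kb of a start site, and 41.7% had any RELA region of 30-min TNFα. The following lists were chosen for roles in TNFα, AP-1 and adhesion biology, and a gene within reach of a region is not thereby its target. Of 26 genes of TNF receptor signaling and survival, 12 had such a region, 23 any RELA region. They included the receptor genes *TNFRSF1A*, *TNFRSF1B*, *TNFRSF12A* (the TWEAK receptor Fn14) and *LTBR*, the adaptors *TRAF1* and *TRAF4*, and the inhibitors of apoptosis *BIRC2*, *BIRC3*, *XIAP*, *BCL2L1*, *BCL2A1* and *CFLAR*. The promoter of *CFLAR*, which encodes the caspase 8 inhibitor c-FLIP, on chr2:201116643-201117180, had RELA 7.70, FOSL1 3.59, both motifs within its window and H3K27ac of 2.85 in vehicle, 2.69 and 2.75 after 30-min and 6-h TNFα, and 2.79 and 2.83 after TWEAK. The region 4962 bp from *TNFRSF1B*, which encodes TNF receptor 2, had RELA 6.54 and FOSL1 12.9 with an AP-1 match.

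Of 17 genes of NF-κB subunits and feedback inhibitors, 5 had a transient region on FOSL1 (*RELA*, *NFKBIA*, *NFKBIB*, *NFKBID* and *BCL3*), while 16 had any RELA region. A pair of regions lay 47007 and 47318 bp from *NFKBIA*, which encodes IκBα, with RELA 6.11 and 5.67 and FOSL1 3.50 and 8.10. Both had *PSMA6*, not *NFKBIA*, as the nearest protein-coding gene. They share an H3K27ac peak in each list, with fold enrichment of 3.29 in vehicle, 3.30 and 3.17 after 30-min and 6-h TNFα and 3.49 and 3.41 after TWEAK. The region 20313 bp from *NFKBID*, which encodes a nuclear IκB protein, had RELA 7.93 and FOSL1 4.45 and no H3K27ac peak in any list. Its nearest protein-coding gene was *APLP1*.

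Of 29 chemokine and cytokine genes, 9 had a transient region on FOSL1 (*CXCL2*, *IL1A*, *IL1B*, *IL11*, *IL18*, *IL23A*, *IL32*, *LIF* and *CSF1*) and 27 any RELA region. The strongest, 9874 bp from *IL1A* on chr2:112794253-112794541, had RELA 12 and FOSL1 7.18, and its H3K27ac lay between 3.36 and 3.63 in the 5 lists. The promoter of *IL1B*, which encodes interleukin 1β, had RELA 5.31 and FOSL1 7.44, with H3K27ac of 3.18 in vehicle, 3.06 and 3.42 after 30-min and 6-h TNFα and 2.64 and 2.94 after TWEAK. An exon region of *IL32*, which also lies 39102 bp from *TNFRSF12A*, had RELA 7.64, an NF-κB match and H3K27ac between 5.49 and 5.99.

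Of 14 AP-1 genes, 7 had a transient region on FOSL1 (*FOS*, *FOSB*, *FOSL1*, *FOSL2*, *JUN*, *JUND* and *MAFK*) and 11 any RELA region. The promoter of *FOSL1* itself, on chr11:65900436-65900864, had FOSL1 15.5 and RELA 6.15 with summits 17 bp apart. H3K27ac there was 2.55 in vehicle, 3.39 and 2.22 after 30-min and 6-h TNFα and 3.47 and 2.62 after 30-min and 6-h TWEAK, so both early lists were above and the late lists near the vehicle value. The *FOSB* promoter had FOSL1 15.2 and RELA 7.44, and its H3K27ac lay between 3.25 and 3.46 in all lists. A region 10211 bp from *MAFK*, a small MAF gene, had RELA 9.58 and FOSL1 11.9.

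Of 26 genes of EGFR family receptors, ligands and MAP kinase feedback, 14 had a transient region on FOSL1 (*EGFR*, *ERBB2*, *ERBB3*, *EREG*, *TGFA*, *NRG1*, *DUSP1*, *DUSP4*, *DUSP5*, *DUSP6*, *SPRY4*, *SPRED2*, *IER3* and *EGR1*) and 19 any RELA region. The promoter of *EREG*, which encodes the EGFR ligand epiregulin, had RELA 8.57 and FOSL1 3.29, an intron region of *EGFR* 8.23 and 4.26, and a region 8011 bp from the early response gene *IER3* 7.31 and 6.37. At *IER3*, H3K27ac was 2.55 in vehicle, 3.18 and 2.63 after 30-min and 6-h TNFα and 3.01 and 2.63 after 30-min and 6-h TWEAK, again higher in both early lists. Of 33 genes of matrix, adhesion and migration, 12 had a transient region on FOSL1 and 30 any RELA region. Among them were the integrin genes *ITGA3*, *ITGA6*, *ITGB4*, *ITGB6* and *ITGAV*, the laminin genes *LAMA3* and *LAMB3*, and *PLAU*, *MMP14*, *CD44* and *EPHA2*. The region 16307 bp from *MMP14*, a membrane-bound collagenase gene, was also in the RELA list of 30-min TWEAK (5.38, beside 7.37 after 30-min TNFα), and its H3K27ac was 6.02 in vehicle, 4.65 and 4.84 after TNFα and 5.87 and 6.49 after TWEAK. Of 20 YAP and TEAD target or pathway genes, 7 had a transient region on FOSL1 (*YAP1*, *TEAD3*, *CCN1*, *AMOTL2*, *AXL*, *CAV1* and *CRIM1*) and 11 any RELA region. These regions had a median RELA fold enrichment of 4.60, and none of the lists had a median above 5.32.

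The study's RNA-seq of the same cells gave a list of genes regulated by TNFα alone and a list it calls common, in which genes regulated by both ligands stand together with a smaller number specific to TWEAK. Both were chosen on the response and are no independent measure of it. A gene of either list lay within 50 kb of 257 transient regions on FOSL1, or 10.9% (9.63 to 12.2%, background 8.51%), and of 12.7% of sustained regions and 7.2% of FOSL1 regions without RELA. The common list accounted for 7.43% (background 5.06%) and the TNFα list for 4.01% (background 3.94%), beside 6.05 and 7.04% at sustained regions. In the genome, 25.8% of the transient regions on FOSL1 had another of them within 50 kb. A sustained region on FOSL1 lay that close to 13.7% of them, and a RELB region of 6-h TWEAK to 21.0%. For sustained regions on FOSL1 the shares were 27.7, 15.7 and 23.4% in the same order. For transient regions without FOSL1 the shares were 17.1, 7.98 and 17.4%.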

How the data were processed

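ChIP-seq of RELA, RELB, H3K27ac and FOSL1 in L3.6pl cells gave 48 paired-end samples in 16 conditions, grouped by the sample labels. According to the methods and the submitters' processing notes, the authors aligned reads to hg38 using Bowtie2 2.5.0, handled them with SAMtools 1.18 and deepTools 3.3.2 and called peaks with MACS2 (version not given in the sources used here) against input, with no shifting model and a stated cutoff of 0.05. The deposited lists, 11 of narrow and 5 of broad (H3K27ac) peaks, hold 1 pooled list per condition. The deposited fold enrichment is the ratio of ChIP to input signal, and the deposited −log10 q is the peak caller's significance. The deposited −log10 p and score were not used. No column of another series was present.

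Regions on chromosomes 1 to 22 and X were compared with Python 3.11.15, numpy 2.4.6, pandas 2.3.3, scipy 1.17.1 and pysam 0.24.0, and the region number was checked with bedtools 2.31.1 (2368 by both). Windows were 500 bp around a summit for H3K27ac and 100 bp on either side for motifs, and genes were taken from GENCODE 44 within 50 kb. Of the 936 genes of the study's lists, 889 were matched by symbol. The functions were tested on simulated data. With 1 list per condition, no test was run, and intervals cover counting error only. Printed sequences leave out chromosome 8. The regions, gene lists and motifs were chosen with earlier results of these data known.

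The regions named were the 10 of highest RELA fold enrichment, the 5 in most other RELA and RELB lists, the 5 strongest that gained H3K27ac after 30-min TNFα, the 5 strongest in promoters, up to 3 per gene list, and the 3 genes nearest to most regions. Some of these results are not reported here. The alternatives covered 13 settings of the peak strength, the overlaps, the windows, the distances and the tandem repeats.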

Additional observations from a re-analysis of the deposited data

How the results depend on the processing

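Of 106 values recomputed under alternative settings, 70 stayed within their counting interval (for the number of regions, within 1.5 times, and for the summit distance, within its quartiles) and 36 moved further. The gained share after 30-min TWEAK, whose interval includes equal numbers, lay at 57.3% and fell below 50% in 4 settings given below. After 6-h TWEAK the main interval also includes equal numbers, but some settings gave more losses than gains. The intervals lay below 50% with an H3K27ac −log10 q of at least 3 (12.9 to 27.6%) and with peaks over the region itself (16.9 to 27.1%). Outside tandem repeats the interval was 23.9 to 46.9%. No paired analysis was possible because the 3 samples of a condition were merged into 1 list, and for the same reason no replicate could be left out. With a motif window of 100 bp the AP-1 share was 11.2% and the NF-κB share 16.4%, and with 400 bp they were 28.5 and 25.3%. With a RELA fold enrichment of at least 5 there were 1254 regions, with AP-1 in 23.4%, NF-κB in 26.9%, vehicle H3K27ac in 91.0% and a gained share of 45.1% after 30-min TWEAK. Of these, 0.718% overlapped RELA after 6-h TWEAK and 0.319% RELB after 30-min TNFα. With FOSL1 over at least 50% of the region, AP-1 was found in 23%, NF-κB in 18.7% and a promoter position in 26.8%.

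With an H3K27ac −log10 q of at least 3, vehicle H3K27ac covered 85.5%, and the gained share was 43.4% after 30-min and 19.5% after 6-h TWEAK. With H3K27ac peaks over the region itself, vehicle H3K27ac covered 77.8%, and the gained shares were 60.7 and 53.4% after 30-min and 6-h TNFα and 46.6 and 21.7% after 30-min and 6-h TWEAK. Outside tandem repeats, vehicle H3K27ac covered 94.1% and the gained share after 30-min TWEAK was 39.7%. There, RELA overlapped 0.412% after 30-min and 0.183% after 6-h TWEAK, and RELB 0% in both TNFα lists and 0.0458% after 30-min TWEAK. With the other lists counted within 500 bp, RELA gave 1.90% after 30-min and 2.15% after 6-h TWEAK, and RELB 1.48 and 1.90% after 30-min and 6-h TNFα and 1.10% after 30-min TWEAK. A study gene lay within 10 kb of 5.03%, and a start site within 5 kb of 37.8%. The cause of these shifts was not tested beyond the settings themselves.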
